A study of Mus musculus with 4 samples.

Results

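Zfp42, Nanog, Klf2, Klf4, Klf5, Esrrb, Tbx3, Tfcp2l1, Prdm14 and Dppa3 encode factors of the naive pluripotent state, and their RNA was compared between WT and Rest-/- mouse ESCs. These 10 of the 26301 genes in the count table were picked by name as established naive factors. The table listed 9 of them under the names above and Tfcp2l1 under its older symbol Tcfcp2l1, which was matched through its Entrez identifier. The study asked how REST, a repressor of neuronal genes, and Polycomb act on chromatin and transcription in ESCs, and sequenced 2 biological replicates of the WT line N6 and 2 of the REST -/- line N8. Both lines grew in LIF and serum over irradiated embryonic fibroblasts and were then moved to gelatin to remove these feeders before RNA was taken. Each genotype was thus a single line, so that genotype and line cannot be told apart.

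Naive ESCs correspond to the preimplantation epiblast and can give rise to all lineages of the embryo. Their factors form a network in which ESRRB, TFCP2L1, KLF2, KLF4, KLF5, TBX3 and NANOG bind many of the same enhancers with OCT4 and SOX2, LIF feeds in through STAT3, Wnt feeds in by relieving repression by TCF7L1, and FGF signalling through ERK drives exit towards the primed state. ZFP42, also known as REX1, is a zinc finger protein whose gene is a widely used reporter of this state, because it is switched on in naive cells, varies from cell to cell in serum and is lost early on exit.

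The libraries held between 22293966 and 30953863 counts on genes. Levels are given as CPM, that is, counts per 1e+06 counts of the TMM-scaled library, and fold changes as log2 of Rest-/- over WT from edgeR's quasi-likelihood test with Benjamini-Hochberg adjustment over the 15444 genes tested. Rest, the targeted gene, was counted at 255.4 and 232.7 CPM in WT and at 164.3 and 175.6 CPM in Rest-/- libraries, which gave -0.52 on the log2 scale (standard error 0.13) with an adjusted p of 0.526, and these whole-gene counts do not show which exons were read. The ESC markers Pou5f1, which encodes OCT4, and Sox2 were at 669.8 to 750.7 CPM and at 406.0 to 476.6 CPM in the 4 libraries. Rest-/- replicate 1 stood apart in part of the fibroblast markers. The summed level of 13 such markers was 39.6 and 31.4 CPM in WT, 114.3 CPM in Rest-/- replicate 1 and 30.3 CPM in Rest-/- replicate 2, of which Col1a1, a fibroblast collagen, made up 46.1 CPM in Rest-/- replicate 1 and 6.42 to 11.8 CPM in the others. The fibroblast markers Lum, Dcn and Fap had 5 counts or fewer in every library. Thy1, another of them, did not stand apart, at 6.928 CPM in Rest-/- replicate 1 against 6.945 and 7.056 CPM in WT. Values without Rest-/- replicate 1 are given below for the 10 genes together, and for those of the 10 that it moved by over 1.5 times.

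Promoter sequences were available for 6 of the 10 genes, with 2 start sites each for Nanog and Esrrb, and 4 are printed here because they hold the motif matches or belong to the genes with the lowest fold changes. Each runs from 250 bases before to 50 bases after the start site, 5′ to 3′ along the gene, in RefSeq's GRCm38.p6 annotation. Capitals mark exact matches, on either strand, to the octamer bound by OCT4 (ATTTGCAT) or to the KLF motif (GGGNGTGG, in which N is any base).
Zfp42, chr8:43306960-43307259, minus strand: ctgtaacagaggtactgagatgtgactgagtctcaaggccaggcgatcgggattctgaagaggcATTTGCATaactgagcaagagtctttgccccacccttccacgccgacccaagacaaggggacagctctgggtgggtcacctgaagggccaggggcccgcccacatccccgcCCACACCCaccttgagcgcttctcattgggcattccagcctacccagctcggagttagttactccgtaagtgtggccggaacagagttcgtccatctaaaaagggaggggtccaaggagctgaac
Nanog, chr6:122707315-122707614, plus strand: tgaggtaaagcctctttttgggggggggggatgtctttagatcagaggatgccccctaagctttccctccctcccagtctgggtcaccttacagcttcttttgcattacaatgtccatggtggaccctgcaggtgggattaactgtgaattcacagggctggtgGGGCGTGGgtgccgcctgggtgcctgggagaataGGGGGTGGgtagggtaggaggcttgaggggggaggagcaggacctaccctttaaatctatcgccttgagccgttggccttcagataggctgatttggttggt
Klf2, chr8:72318812-72319111, plus strand: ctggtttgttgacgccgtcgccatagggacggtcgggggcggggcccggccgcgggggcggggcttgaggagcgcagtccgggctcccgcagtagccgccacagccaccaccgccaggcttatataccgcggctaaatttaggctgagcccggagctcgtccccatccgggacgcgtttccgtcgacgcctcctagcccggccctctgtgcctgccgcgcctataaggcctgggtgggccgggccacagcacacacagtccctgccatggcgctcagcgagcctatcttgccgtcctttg
Tfcp2l1, chr1:118627695-118627994, plus strand: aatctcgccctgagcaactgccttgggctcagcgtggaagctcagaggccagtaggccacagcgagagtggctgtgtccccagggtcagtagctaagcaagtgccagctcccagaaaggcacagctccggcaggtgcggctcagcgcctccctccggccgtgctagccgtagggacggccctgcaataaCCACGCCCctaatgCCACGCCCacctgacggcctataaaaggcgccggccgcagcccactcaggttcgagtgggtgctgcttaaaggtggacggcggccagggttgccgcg

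The Zfp42 promoter held both an octamer, whose first base lies at -186, and a KLF match on the opposite strand at -75, counting from the start site with no base 0. The octamer occurred in 1.74% of the 32851 promoters of this length and in 1 of the 6 genes, and the KLF motif in 17.6% of all promoters and in 3 of the 6 genes, Zfp42, Nanog and Tfcp2l1. Nanog carried its KLF matches at -86 and -52 of the start site shown, and Tfcp2l1 at -61 and -47 on the opposite strand. The letters of the ESRRB motif (TCAAGGTCA, in 0.423% of all promoters), of the STAT motif (TTCCNGGAA, 1.15%) and of the RE1 half-sites that REST recognises (TTCAGCACC, 0.371%, and GGACAGCGC, 0.405%) were in none of the 8 promoters of these genes. With 1 mismatch allowed, 6 of the 6 genes held a KLF match, but so did 76.5% of all promoters. On the same terms 2 genes held an octamer (Zfp42 and Nanog, against 18.6% of all promoters), 1 the ESRRB motif (Zfp42, 7.46%) and 1 the STAT motif (Esrrb, 17.8%). The first RE1 half-site was then in 1 gene (Zfp42, 8.25%) and the other in 2 (Zfp42 and Klf2, 9.12%). A full RE1, made of these 2 parts with 2 bases between them and searched in mm9 with 2 of 18 letters allowed to differ, occurred within 20 kb of a start site of 337 of 14562 tested genes (2.31%) and of 0 of the 10 naive genes. Such matches describe the sequence alone and show neither binding nor its absence.

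Zfp42 had the lowest fold change of the 10 genes. It was counted 21811 and 14492 times in WT and 6669 and 5014 times in Rest-/- libraries, which is 704.5 and 541.1 CPM against 258.1 and 226.4 CPM. Both Rest-/- libraries thus lay below both WT libraries, and the means were 622.8 ± 115.6 CPM (SD, n = 2) and 242.2 ± 22.5 CPM (SD, n = 2), a 2.57-fold lower level. The log2 fold change of Zfp42, which spans chr8:44380422-44392363 on the minus strand of mm9, was -1.36 (standard error 0.18), and edgeR's quasi-likelihood test gave an adjusted p of 0.179. Among the 9661 genes with a mean of at least 10 CPM, 14 had a lower fold change. As RNA was taken in bulk, fewer cells with Zfp42 and less Zfp42 RNA per cell cannot be told apart.

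**Figure D1:**
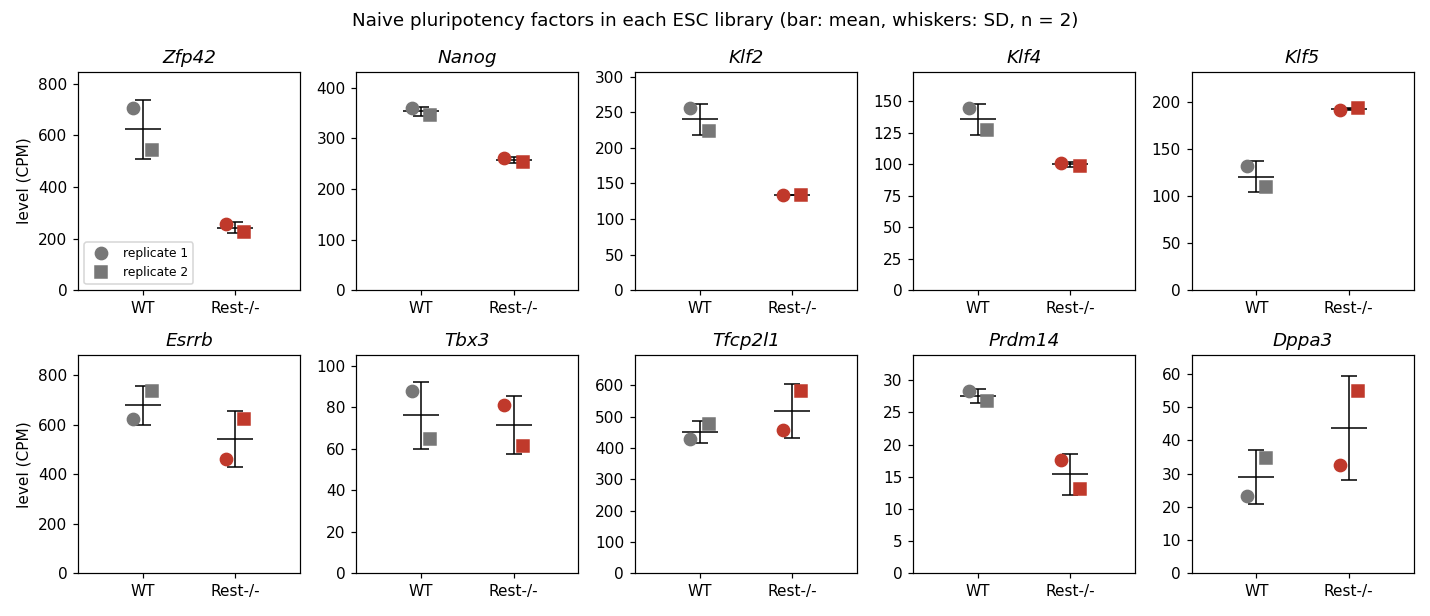
Level in CPM (vertical axes, from 0, a scale for each gene) of the 10 naive factors in WT (grey) and Rest-/- (red) libraries. Circles are replicate 1, squares replicate 2, bars the mean and whiskers the SD (n = 2). Zfp42, Nanog, Klf2, Klf4 and Prdm14 were lower in both Rest-/- libraries than in both WT libraries, Klf5 was higher in both, and the ranges of Esrrb, Tbx3, Tfcp2l1 and Dppa3 overlapped.

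At an adjusted p under 0.05, 0 of the 10 genes passed edgeR's quasi-likelihood test, in which 0.0583% of all tested genes passed. Without adjustment, 6 of the 10 had p under 0.05 in that test, against 6.71% of all tested genes. Both Rest-/- libraries lay below both WT libraries for 5 of the 10, against 15.4% of all tested genes, and above them for 1 of the 10, against 16.5%. Of the fold changes, 7 were below 0 and 3 above, with a median of -0.38, where the median of all tested genes was -0.00466. Other tests passed Zfp42. It had an adjusted p of 0.000148 in edgeR's exact test with tag-wise dispersion, in which 1.51% of all tested genes passed, and of 0.0387 in edgeR's exact test with common dispersion, in which 2.22% passed. DESeq2, which passed 1.54% of all tested genes, gave Zfp42 an adjusted p of 6.02e-05 and Klf2 one of 0.0269. With the replicate number as a block in edgeR's quasi-likelihood test, 8 of the 10 genes passed, all but Tbx3 and Tfcp2l1, in a fit that passed 17.0% of all tested genes, although no source links same-numbered libraries.

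Leaving out single libraries kept the direction of 9 of the 10 genes throughout. Without WT replicate 2, Zfp42 passed edgeR's quasi-likelihood test, with a log2 fold change of -1.54 and an adjusted p of 0.0161, in a fit that passed 0.711% of the 15902 genes tested and took the lone WT library to vary like the others. Its log2 fold change lay between -1.54 and -1.17 when each library in turn was left out. Without Rest-/- replicate 1, the library that stood apart in part of the fibroblast markers, all 10 genes kept their direction and their median was -0.38. Tbx3 changed direction without WT replicate 1, to 0.13, and without Rest-/- replicate 2, to 0.09.

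**Figure D2:**
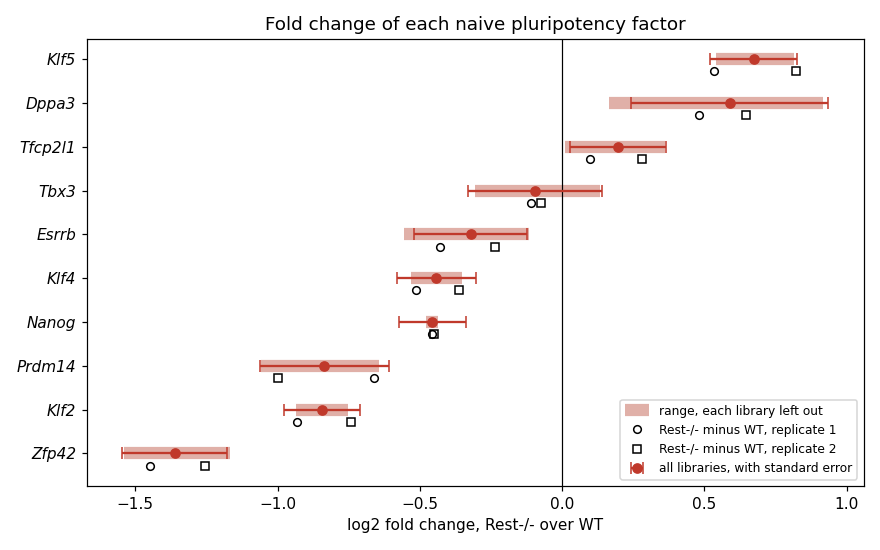
Log2 fold change of Rest-/- over WT (horizontal axis) for each of the 10 genes. Filled points with whiskers are edgeR estimates from 4 libraries with their standard error, pale bars the range with each library left out in turn, and open symbols the difference within each replicate number. Zfp42 lies lowest at -1.36 and Klf5 highest at 0.67, and the pale bar crosses 0 for Tbx3.

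The 3 KLF factors, zinc finger proteins that can stand in for each other in sustaining self-renewal, did not share a direction. Klf2 was at 255.7 and 224.2 CPM in WT and at 133.8 and 133.7 CPM in Rest-/- libraries. Klf4, one of the reprogramming factors and a target of STAT3, was at 144.3 and 126.8 CPM in WT and at 101.0 and 98.5 CPM in Rest-/-. Klf5 was at 132.4 and 109.2 CPM in WT and at 191.7 and 193.5 CPM in Rest-/-. For each of them the groups did not overlap, with Klf2 and Klf4 lower and Klf5 higher in both Rest-/- libraries. The log2 fold change was -0.84 (standard error 0.13) for Klf2, -0.44 (standard error 0.14) for Klf4 and 0.67 (standard error 0.15) for Klf5, with adjusted p of 0.2395, 0.665 and 0.451 in edgeR's quasi-likelihood test. Klf5 kept a value above 0, between 0.54 and 0.81, and Klf2 one below 0, between -0.93 and -0.75, whichever library was left out. The difference between the fold changes of Klf5 and of Klf2 or Klf4 was not tested.

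Nanog, a homeodomain factor that lets ESCs renew without LIF when it is in excess, was at 359.6 and 347.2 CPM in WT and at 261.4 and 253.7 CPM in Rest-/- libraries. Its groups did not overlap, and its replicates were close to each other, at 353.4 ± 8.74 CPM (SD, n = 2) and 257.6 ± 5.47 CPM (SD, n = 2). The log2 fold change of -0.46 (standard error 0.12) had an adjusted p of 0.546 in edgeR's quasi-likelihood test and stayed between -0.48 and -0.44 with each library left out. Prdm14, a repressor of FGF signalling and DNA methylation genes, was counted 874 and 716 times in WT and 456 and 291 times in Rest-/- libraries, or 28.2 and 26.7 against 17.6 and 13.1 CPM. It too was lower in both Rest-/- libraries, with a log2 fold change of -0.84 (standard error 0.23) and an adjusted p of 0.596 in the same edgeR test.

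The remaining 4 genes overlapped between the genotypes. Esrrb, an orphan nuclear receptor of the network's centre, was at 622.9 and 734.8 CPM in WT and at 463.0 and 624.1 CPM in Rest-/- libraries. Tfcp2l1, a STAT3 target, was at 428.0 and 477.8 CPM in WT and at 457.8 and 580.8 CPM in Rest-/-. For both, replicate 2 was above replicate 1 in either genotype. Tbx3, a T-box factor, was at 87.5 and 64.6 CPM in WT and at 81.1 and 61.4 CPM in Rest-/-, so that its replicates differed more than its genotypes. Dppa3, also known as Stella, which guards maternal DNA methylation in the zygote, was at 23.3 and 34.8 CPM in WT and at 32.6 and 54.6 CPM in Rest-/-. In mm9 its coding sequence has a near-identical copy on chromosome X (98.2%) and a less similar one on chromosome 14 inside Cacna1d (91.1%). Its counts may thus be uncertain, but whether reads were shared with these copies was not tested. The log2 fold changes were -0.32 (standard error 0.20) for Esrrb, 0.20 (standard error 0.17) for Tfcp2l1, -0.09 (standard error 0.24) for Tbx3 and 0.59 (standard error 0.35) for Dppa3, with adjusted p of 1.0, 1.0, 1.0 and 0.987 in edgeR's quasi-likelihood test. Within replicates 1 and 2 the differences were -0.43 and -0.24 for Esrrb and 0.097 and 0.28 for Tfcp2l1. For Tbx3 they were -0.11 and -0.07, and for Dppa3 0.48 and 0.64. The log2 fold changes moved when single libraries were left out. Without Rest-/- replicate 1 they were -0.12 for Esrrb, 0.36 for Tfcp2l1, -0.305 for Tbx3 and 0.92 for Dppa3. Without Rest-/- replicate 2 they were -0.56 for Esrrb, 0.01 for Tfcp2l1 and 0.16 for Dppa3. Leaving out WT replicate 1 gave 0.12 for Tfcp2l1 and 0.32 for Dppa3, and leaving out WT replicate 2 gave -0.195 for Esrrb and 0.91 for Dppa3.

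Levels of different genes were compared as CPM per kb of annotated exon. In WT ESCs Zfp42 was the highest of the 10 at 346.0 ± 64.2 CPM per kb (SD, n = 2), followed by Nanog at 157.6 ± 3.90, Klf2 at 129.9 ± 12.0, Esrrb at 112.3 ± 13.1 and Klf5 at 70.2 ± 9.54 CPM per kb. Tfcp2l1 at 48.9 ± 3.80, Klf4 at 44.3 ± 4.05, Dppa3 at 32.5 ± 9.12, Tbx3 at 14.2 ± 3.02 and Prdm14 at 10.7 ± 0.41 CPM per kb came next. Without division by length, Esrrb came first in WT CPM, followed by Zfp42 and Tfcp2l1, and 9 of the 10 ranks differed from those per kb. Among neighbours in the order per kb, the ranges of Klf2 and Esrrb and those of Tfcp2l1 and Klf4 overlapped. In Rest-/- ESCs Zfp42 was at 134.6 ± 12.5, Nanog at 114.9 ± 2.44, Klf5 at 111.9 ± 0.75, Esrrb at 89.9 ± 18.8 and Klf2 at 72.4 ± 0.02 CPM per kb (SD, n = 2). The lead of Zfp42 over Nanog was thus narrower there, and Klf5 stood above Klf2. Without division by length, Nanog at 257.6 CPM was above Zfp42 at 242.2 CPM in Rest-/- ESCs. Summed over the 10 genes, the level was 2786 and 2687 CPM in WT and 1998 and 2240 CPM in Rest-/- libraries.

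Further genes of the network and markers of other cell types were taken from lists fixed along with the 10 genes. Over 96 tested genes of the 12 lists, network genes and markers together, 0 passed edgeR's quasi-likelihood test and 19 had an unadjusted p under 0.05 in it, against 0.0583% and 6.71% of all tested genes. Of the same 96, 5 passed edgeR's exact test with tag-wise dispersion, 11 the one with common dispersion and 4 DESeq2, against 1.51%, 2.22% and 1.54% of all tested genes. Of the 11, 5 were fibroblast markers, Col1a1 among them, which was high in Rest-/- replicate 1. The replicate block passed 43 of the 96, against 17.0%. Over all tested genes, 7591 fold changes were above 0 and 7853 below. The 11 other naive genes had a median of -0.39, with 8 below 0 and 6 lower in both Rest-/- libraries, against 15.4% of all tested genes, and leaving out WT replicate 1 or WT replicate 2 gave medians of -0.106 and -0.612. Fgf4, the ligand that ESCs make for their own ERK signalling, was lowest among them, at 254.6 and 266.3 CPM in WT and 120.2 and 143.5 CPM in Rest-/- libraries (-0.98 on the log2 scale, standard error 0.15, adjusted p = 0.215 in edgeR's quasi-likelihood test). It passed edgeR's exact test with tag-wise dispersion and DESeq2, with adjusted p of 0.0199 and 0.00761. Pecam1, an adhesion protein, lay at their median, but at -0.1965 without Rest-/- replicate 1 and -0.61 without Rest-/- replicate 2, and Gbx2, a STAT3 target, was highest at 0.90. The 8 genes of the core network, which the naive and primed states share, had a median of 0.05, from -0.10 for Sox2 to 0.19 for Utf1, and this median lay between -0.0949 without WT replicate 2 and 0.148 without WT replicate 1, and was -0.062 without Rest-/- replicate 1. With single libraries left out, Sox2 lay between -0.19 and -0.01 and Utf1 between 0.09 and 0.29.

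Among the signals that feed into the network, 5 of 8 LIF-STAT3 genes were above 0, with a median of 0.175. Lifr, the LIF receptor, was lowest at -0.28, Stat3 itself was at 0.19 and Junb was highest at 0.51, on the log2 fold change scale. Of 8 FGF-ERK genes 5 were above 0, with a median of 0.242, from -0.36 for the receptor Fgfr1 to 0.87 for Dusp6, an ERK phosphatase that ERK itself induces. Their median moved between 0.0377 without Rest-/- replicate 1 and 0.689 without WT replicate 1, and that of the LIF-STAT3 genes was 0.0108 without WT replicate 1 and -0.0846 without Rest-/- replicate 2. Of 5 Wnt-TCF genes 4 were above 0, with a median of 0.03, which became 0.314 without WT replicate 2, 0.142 without Rest-/- replicate 1, -0.0371 without WT replicate 1 and, leaving out Rest-/- replicate 2, -0.0445. Tcf7l1, which represses naive genes, was lowest there at -0.04 and Lef1 highest at 1.67, from 116 and 78 WT counts to 399 and 128 Rest-/- counts, but at 0.80 without Rest-/- replicate 1. In the same way Dusp6 was at 0.57 without that library, and Fgfr1 was at -0.23 without WT replicate 2. Partners and regulators of the 10 genes had a median of -0.11 over 11 genes, 8 of them below 0, and of -0.00562 when WT replicate 1 was left out. They ranged from -0.55 for Yy2, a zinc finger relative of Zfp42, to 0.78 for Dnmt3a, a de novo DNA methyltransferase. The value of Yy2 lay between -1.25 without Rest-/- replicate 1 and 0.43 without WT replicate 1. Its gene lies on chromosome X, where the median of tested genes was -0.404. Dnmt3a was at 135.9 and 166.0 CPM in WT and at 244.3 and 272.9 CPM in Rest-/-.

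The primed epiblast and the primitive endoderm lie next to the naive state, and 0 of their markers passed edgeR's quasi-likelihood test, where 2 and 4 had an unadjusted p under 0.05, against 6.71% of all tested genes. Of the primed markers, 1 passed edgeR's exact test with common dispersion, 0 the tag-wise one, 0 DESeq2 and 3 the replicate block. Of the endoderm markers, 3 passed each exact test, Gata6 and Pdgfra higher and Hnf4a lower in Rest-/- libraries. DESeq2 passed 2 of them, Pdgfra and Hnf4a, and the replicate block 8. These tests passed 1.51% (tag-wise), 2.22% (common dispersion), 1.54% (DESeq2) and 17.0% (block) of all tested genes. For the 10 primed or formative markers the median was 0.29 on the log2 scale, with 7 above 0, 3 higher in both Rest-/- libraries, against 16.5% of all tested genes, and 2 lower in both, against 15.4%, but the median was 0.51 within replicate 1 and -0.05 within replicate 2. Leaving out either library numbered 1 lowered it, to 0.127 for Rest-/- and 0.174 for WT, and leaving out either numbered 2 gave 0.494 for Rest-/- and 0.528 for WT. The 12 primitive endoderm markers had a median of 0.71, with 10 above 0. Of them, 7 were higher in both Rest-/- libraries and 1, Hnf4a, was lower in both, against the same 16.5% and 15.4%. Their summed level was 161.6 and 297.1 CPM in WT and 354.5 and 448.6 CPM in Rest-/-. Of this the collagen gene Col4a1 alone made up 59.9 and 116.9 CPM in WT and 145.1 and 175.3 CPM in Rest-/-. Gata6, which directs the choice of endoderm over epiblast, was highest of the 12 markers at 2.26. It went from 28 and 13 WT counts to 112 and 53 Rest-/- counts, while Hnf4a was lowest at -2.49. The median of this list was 0.447 when WT replicate 1 was left out and 1.18 when WT replicate 2 was. The 10 tested fibroblast markers had a median of 1.60, which was -0.395 without Rest-/- replicate 1. What part these markers have in the values of the naive genes was not tested.

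**Figure D3:**
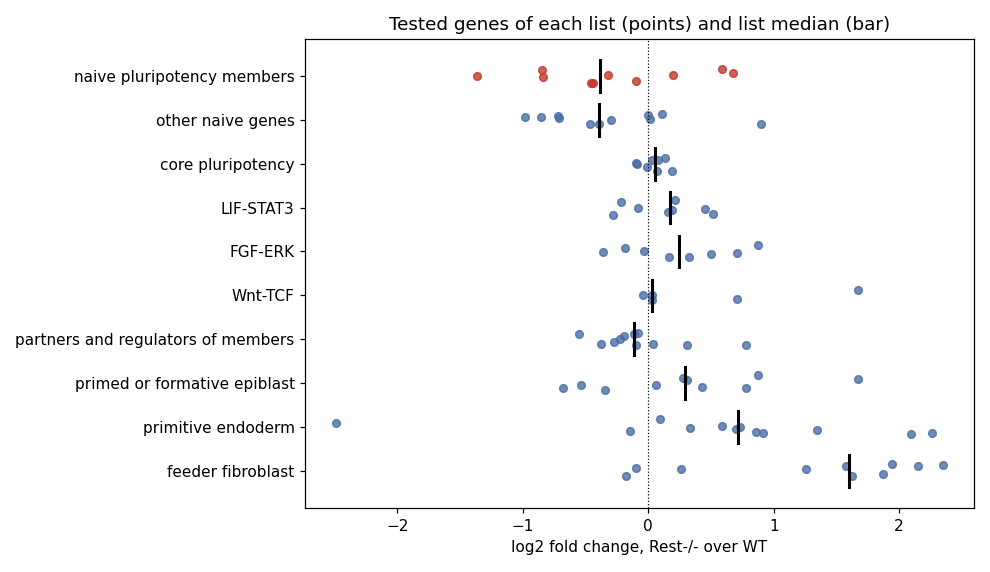
Log2 fold change of Rest-/- over WT (horizontal axis) for the tested genes of each list, a point per gene, with the list median as a bar. The medians of the 10 naive factors and of the 11 other naive genes lie at -0.38 and -0.39, that of the core network at 0.05 and that of the primitive endoderm markers at 0.71, and 0 of the genes drawn passed edgeR's quasi-likelihood test.

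Position in the genome was looked at next, since Zfp42 and Klf2 both lie on chromosome 8. The median log2 fold change over its other 784 tested genes was -0.134, and 71.6% of them were below 0, while the medians of the other autosomes were between -0.0232 and 0.0813 and chromosome X was at -0.404. Within replicates, the chromosome 8 median was -0.14 and -0.107. The part of this shift in the values of Zfp42 and Klf2 was not tested. Around Zfp42, 2 tested genes lay within 1 Mb, the tripartite motif genes Triml2 and Triml1. Triml2, 101187 bases away, was at 197.8 and 117.3 CPM in WT and at 130.9 and 87.99 CPM in Rest-/- libraries, and Triml1, 153582 bases away, at 112.2 and 71.8 CPM against 60.3 and 55.1 CPM. Their log2 fold changes were -0.53 and -0.67, and Triml1 but not Triml2 was lower in both Rest-/- libraries. On the other side of Zfp42 the nearest gene, Adam26b, had 0 counts in the 4 libraries.

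Around Klf5, on chromosome 14, the 5 tested genes within 1 Mb were all above 0, between 0.374 and 1.25, with a median of 0.751. Within 1 Mb of Klf2, 31 of 46 tested genes were below 0, with a median of -0.17, and 1 passed edgeR's quasi-likelihood test, the synaptic gene Unc13a, which was 647276 bases away and is named for its call. Likewise, 9 of 10 were below 0 around Tbx3, with a median of -0.166. The medians around the other 6 members, Zfp42 aside, lay between 0.00645 and 0.184. Nanog and Dppa3 share a stretch of chromosome 6 with other genes active in ESCs. Between the values of these genes, at -0.46 and 0.59, stood Gdf3, a TGF-beta ligand, at -0.11, the glucose transporter Slc2a3 at -0.09 and the cytidine deaminase Apobec1 at 0.37.

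**Figure D4:**
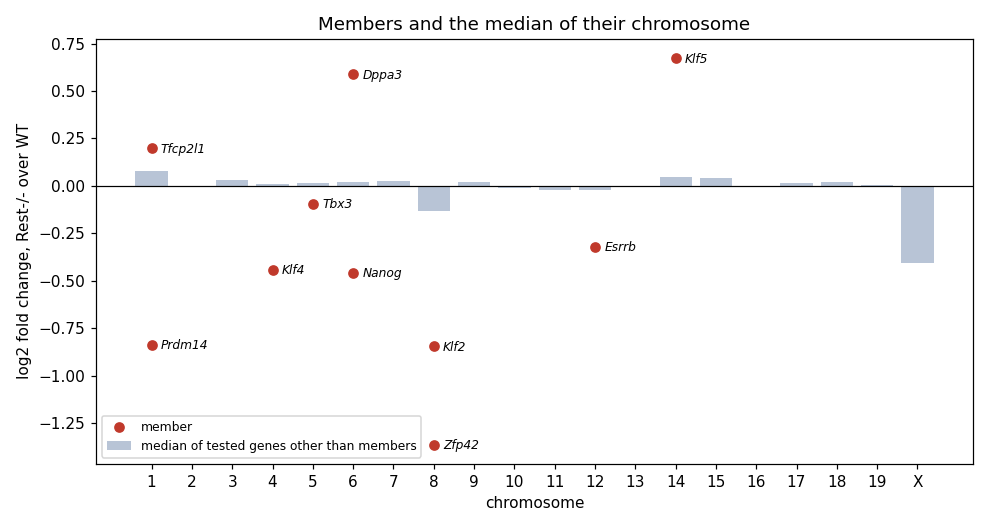
Median log2 fold change of Rest-/- over WT of the tested genes on each chromosome, without the 10 naive genes (bars), and the 10 genes on their own chromosomes (points). Chromosome 8 and chromosome X have medians of -0.134 and -0.404, and Zfp42 and Klf2 lie at -1.36 and -0.84 on chromosome 8.

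The genes most like Zfp42 were sought by the Euclidean distance of their log2(CPM + 0.5) profiles over the 4 libraries, each centred on its WT mean, among 9660 genes with a mean of at least 10 CPM. They were Atp2b4, a calcium pump, at a distance of 0.163, Notch4, a Notch receptor, at 0.271, the ETS factor Elf4 at 0.335, the ribosomal protein gene Rpl39l at 0.35 and the adhesion receptor gene Adgre5 at 0.365. Their log2 fold changes were -1.32, -1.24, -1.27, -1.64 and -1.18, values which the choice by distance over the same libraries brings close to that of Zfp42. Adgre5 also lies on chromosome 8 and Elf4 on chromosome X. None of the other 9 naive genes was among these 5.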

How the data were processed

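Total RNA of 2 WT (N6) and 2 Rest-/- (N8) mouse ESC cultures was sequenced from TruSeq libraries, which the labels call biological replicates. The authors mapped reads with Subread and deposited whole-number counts per Entrez gene from featureCounts, without normalization, on mm9, as named in the submitters' processing notes. Tool versions, gene annotation and the use of strand are not given in the sources used here, so overlapping genes were not told apart. Of 26669 table entries, 368 had no identifier or counts and were left out. Names came from RefSeq, which matched 24191 identifiers, and positions and exon lengths from GENCODE M1 on NCBIM37 (mm9), which gave 22858 identifiers 1 position.

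Groups came from the labels. Genes passing filterByExpr were tested in R 4.3.3 with edgeR 4.0.16 (TMM, quasi-likelihood, no pairing, prior count 0.125, two-sided, Benjamini-Hochberg adjusted p under 0.05). Standard errors were derived as the absolute log2 fold change divided by the square root of the test's F statistic. The script was checked on simulated counts. A count of 3 corresponds to 0.0969 and 0.112 CPM in WT and to 0.116 and 0.135 CPM in Rest-/- libraries, which covers counting error alone. Within-replicate differences used log2(CPM + 0.5). Copies of coding sequences, with an identity of at least 90% across 80% or more of the length, were found with BLAST+ 2.17.0. Summaries used Python 3.11.15, numpy 2.4.6 and pandas 2.3.3. Alternatives were scaling by library size, RLE or upper quartile, 2 further filters, edgeR's exact test, DESeq2 1.42.0, a replicate block, each library left out, 1 mismatch in motifs and levels without length.

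Named are the 10 members, genes at or next to the highest, median and lowest fold change of each list, the 5 genes most like Zfp42, the neighbours of Zfp42, Nanog and Dppa3, and Rest. Pou5f1, Lum, Dcn and Fap, Triml1, Unc13a, Col4a1 and, as a marker of the library that stood apart, Col1a1 fall outside this rule or were singled out after their values were seen. The members and lists were chosen with earlier results of these data known.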

Additional observations from a re-analysis of the deposited data

How the results depend on the processing

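Precision was limited by 2 libraries per genotype, and p-values cover the spread between these libraries only. The 9 genes passing among all tested, 8 higher and 1 lower, became 53 (49 higher, 4 lower) without a filter, 3 (3 and 0) with at least 10 counts in every library, 233 (179 and 54) with the tag-wise exact test, 343 (246 and 97) with common dispersion, 238 (180 and 58) with DESeq2, and 60 to 113 with 1 library left out. RLE, upper quartile and library-size scaling gave 10, 10 and 9. Of the 10 members, 0 passed in edgeR's quasi-likelihood test, 1 in either exact test, 2 in DESeq2, and 0 to 1 with a library left out, the 1 being Zfp42 without WT replicate 2. Of 130 fold changes of members under alternatives, 115 kept direction and side of the threshold, 13 passed it, and 2 turned direction, those of Tbx3 without WT replicate 1 (0.1344) and without Rest-/- replicate 2 (0.08848), in a range from -0.305 to 0.1344 with a library left out, and the cause was not tested.

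With the replicate block, 2621 genes passed (1308 higher, 1313 lower) and 8 members, Zfp42 at -1.35 with an adjusted p of 8.13e-06 in edgeR's quasi-likelihood test. Differences between replicates 1 and 2 correlated between genotypes across 15444 genes, which are not independent replicates (r = 0.807), but 2 pairs without a stated link do not show a pairing. Of 168 list medians under alternatives 9 changed sign, all with a library left out. They were the core list without WT replicate 2 or Rest-/- replicate 1, LIF-STAT3 without Rest-/- replicate 2, Wnt-TCF and two-cell-like without WT replicate 1 or Rest-/- replicate 2, neural without WT replicate 1 and fibroblast without Rest-/- replicate 1. The two-cell-like list had no gene left at 10 counts or more in every library.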

Other observations

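Lists beyond the naive network held 2 patterns of another kind. The 5 tested markers of two-cell-like cells, a rare state within ESC cultures, followed the replicate number more than the genotype. WT and Rest-/- replicates 1 had a summed level of 12.2 and 7.90 CPM, and WT and Rest-/- replicates 2 one of 2.58 and 0.993 CPM. Zfp352, at their median, was counted 48 and 9 times in WT and 26 and 1 times in Rest-/- libraries. Their median log2 fold change of -0.818 turned to 0.663 without WT replicate 1 and to 0.0789 without Rest-/- replicate 2. It was -2.99 without Rest-/- replicate 1 and -1.51 without WT replicate 2, so that it depended on which library was left out. The median difference was -0.487 within replicate 1 and -0.617 within replicate 2.

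Trophectoderm markers were scarce, with a summed level of 16.3 and 29.8 CPM in WT and of 32.9 and 58.6 CPM in Rest-/- libraries. Of this Krt7, whose groups overlapped, made up 4.78 and 21.4 CPM in WT and 11.2 and 44.1 CPM in Rest-/-. All 5 tested were above 0, with a median of 0.956, and 2 were higher in both Rest-/- libraries, against 16.5% of all tested genes. Krt7 turned to -0.23 without Rest-/- replicate 2 and Gcm1 to -0.47 without Rest-/- replicate 1. Cdx2, which specifies the trophectoderm and passed edgeR's exact test with common dispersion alone among the tests without a block (adjusted p = 0.0213), was counted 27 and 24 times in WT and 98 and 41 times in Rest-/-, with a log2 fold change of 1.67 that was 1.07 without Rest-/- replicate 1. In the neural list Olig2, a regulator of oligodendrocyte and motor neuron fate, was counted 158 and 172 times in WT but 1 and 0 times in Rest-/- libraries, with an adjusted p of 0.106 in edgeR's quasi-likelihood test. It passed both exact tests of edgeR (tag-wise, then common dispersion), DESeq2 and the replicate block, with adjusted p of 4.06e-15, 1.13e-19, 1.3e-05 and 7.66e-05. Tubb3, a tubulin of neurons, lay near the list's median of 0.0162, which single libraries moved between -0.0977 (WT replicate 1 left out) and 0.129 (WT replicate 2 left out), with 0.0791 and 0.0272 when Rest-/- replicate 1 or 2 was left out.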
